A study of Mus musculus with 8 samples.

Results

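The 54 mitosis and spindle genes described here were taken by symbol from a list of cyclins and kinases of mitotic entry, kinesins, spindle, kinetochore and checkpoint proteins, and proteins of anaphase, cytokinesis and chromosome structure. All 54 were among the 55367 genes of the count table. All 54 also met the count rule of at least 10 counts in at least 3 of 8 libraries, as did 12137 genes in all. The lowest count of any of the 54 in any library was 47, so the rule removed none of them. RNA came from a mouse fibroblastic reticular cell (FRC) line, the stromal cell that builds the fiber network of the lymph node. It was a single line, derived from nodes of C57BL/6 mice with the p53 ER/ER genotype, so every group carried that allele. FRCs were treated for 4 days in RPMI medium under 4 conditions, with 2 libraries each and the same serum and antibiotic supplement in all. Vehicle was RPMI with water in the volume used for the acid, and LA was RPMI with 15 mmol/L lactic acid. CCM was RPMI conditioned by FRCs themselves, and TCM was RPMI conditioned by B16.F10 cells, a mouse melanoma line.

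A cell enters mitosis when the kinase Cdk1, bound to A-type or B-type cyclins, becomes active. Kinesin motors and microtubule-binding proteins then build the spindle, kinetochores attach chromosomes to it, and the spindle checkpoint holds back anaphase until all are attached. Most genes for these proteins are transcribed late in the cell cycle, when B-Myb and FoxM1 act with the MuvB complex at CHR elements and NF-Y acts at CCAAT boxes. Their mRNAs are therefore low in resting cells and high in cells of the G2 and M phases. In bulk RNA, fewer cells in these phases and less RNA per such cell cannot be told apart.

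Libraries held from 8232889 to 14107964 counts on genes, and a floor of 3 counts in a library equaled 0.213 to 0.364 CPM (counts scaled to a common library size), which covers counting error only. CPM values were scaled with TMM factors, which correct for a few abundant genes taking up reads. Same-condition libraries differed by more than counting noise, with a chi-square per degree of freedom of 3.28 for CCM, 4.82 for vehicle, 7.32 for LA and 19.8 for TCM. With 2 libraries against 2, the smallest 2-sided exact permutation P value is 0.333. Tests therefore used a spread for each gene that was pooled over all conditions and moderated across genes. The larger noise of TCM was not modeled separately, so its SEs and P values rest partly on the quieter groups. The FRC label was checked with 6 markers that summed to 13800 to 18000 CPM, with Col1a1 at 131525 to 244327 counts, Pdpn at 1023 to 1845 counts and Vcam1 at 1190 to 2177. Pdgfra had 417 to 952 counts and Pdgfrb 2538 to 5445, whereas Thy1 had 1 to 16. The leukocyte genes Ptprc (CD45), Cd3e and Itgam had 0 counts in all 8 libraries. Endothelial markers were near 0, with 4 to 9 counts of Pecam1 (CD31), 1 to 7 of Cdh5, at most 2 of Lyve1 and 0 of Prox1.

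The mitosis and spindle genes stood lowest with TCM, higher with vehicle and highest with CCM and LA. Together they held 0.172% and 0.178% of all counts in the TCM libraries and 0.313% and 0.277% under vehicle. Their share was 0.449% and 0.441% with CCM and 0.463% and 0.415% with LA. The median gene of the 54 had 22.6 ± 0.768 CPM with TCM (SD, n = 2), 38.2 ± 3.25 with vehicle, 55.2 ± 1.67 with CCM and 57.6 ± 3.81 with LA. The CCM and LA libraries overlapped, and the gaps between them, vehicle and TCM were larger than the spread within any condition. Per kilobase of exon, levels among the 54 genes with vehicle ran from 1.60 CPM for Kif15 to 41.5 CPM for Smc4, with a median of 8.87 CPM per kilobase.

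**Figure D1:**
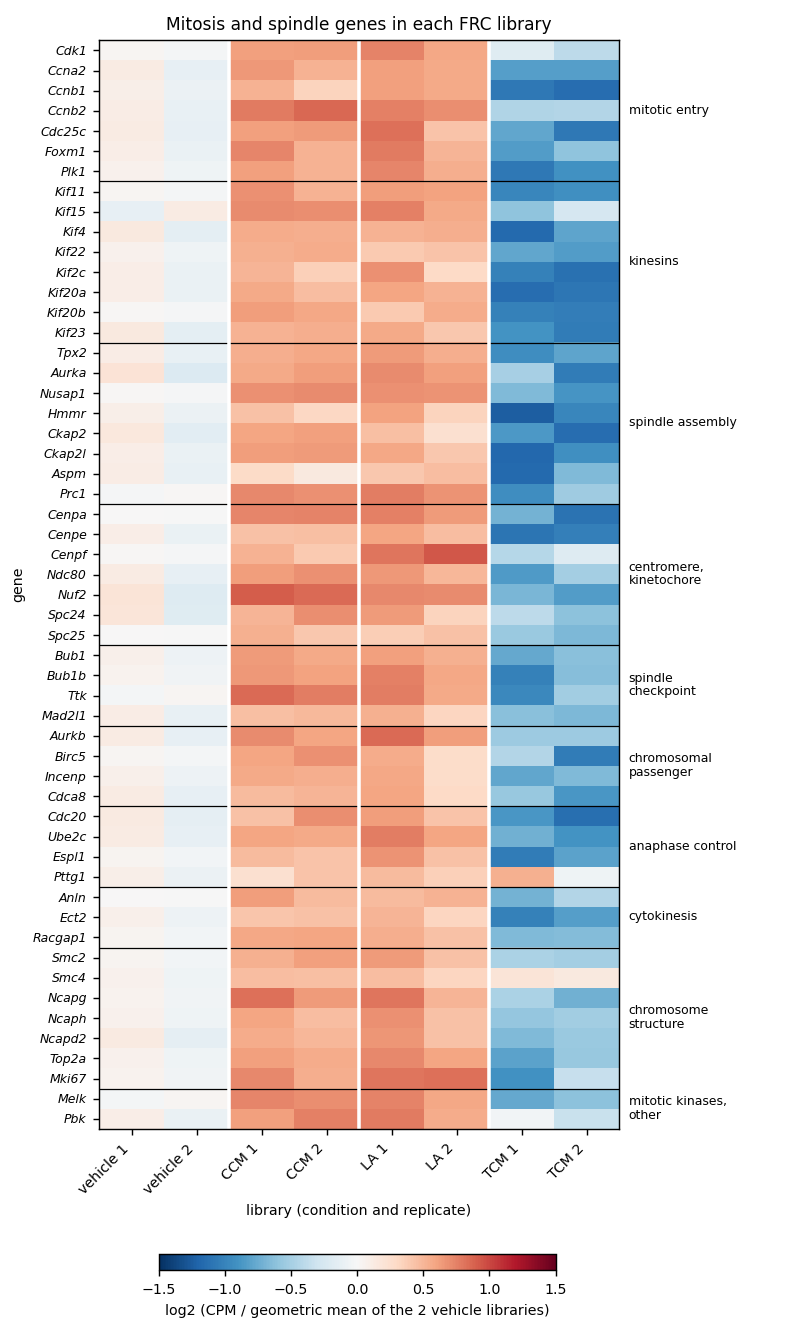
Each row is 1 of the 54 genes, grouped by role, each column is 1 of the 8 libraries, and color gives the log2 ratio of its CPM to the geometric mean of the 2 vehicle libraries (blue lower, red higher). Both TCM columns are blue for all genes but Pttg1 and Smc4, with Pbk nearly white in TCM 1, and the CCM and LA columns are red for every gene.

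Promoter sequences are shown for 6 of these genes, picked by name as examples and not drawn at random. Of these, 5 were lower with TCM than with CCM by the threshold given below, and 1 missed it. The latter is Pttg1 (securin, which blocks separase until anaphase). They are 150-base stretches of RefSeq promoters on GRCm38.p6, from 140 bases before the start base, 5′ to 3′ on the gene's strand. Capitals mark the CHR motif (TTTGAA or TTCGAA) and the CCAAT motif on either strand, so that TTCAAA and ATTGG are their reverse forms. A CCAAT match can share its end base with a CHR match. Cdk1 lies at chr10:69352903-69353052 (minus strand), Ccnb2 (cyclin B2) at chr9:70421545-70421694 (minus), Kif11 (the kinesin Eg5) at chr19:37376242-37376391 (plus), Top2a (topoisomerase II alpha) at chr11:99024180-99024329 (minus), Ube2c (a ubiquitin-conjugating enzyme of the APC/C) at chr2:164769789-164769938 (plus) and Pttg1 at chr11:43425972-43426121 (minus). For Pttg1 the RefSeq start lies inside the GENCODE gene model, downstream of its 5′ end. This also holds for other genes counted below, among them Kif2c and Cdca8, whose whole windows lie inside their gene models.
Cdk1: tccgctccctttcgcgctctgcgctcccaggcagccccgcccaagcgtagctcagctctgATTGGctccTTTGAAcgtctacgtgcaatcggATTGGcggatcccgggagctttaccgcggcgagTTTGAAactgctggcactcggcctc
Ccnb2: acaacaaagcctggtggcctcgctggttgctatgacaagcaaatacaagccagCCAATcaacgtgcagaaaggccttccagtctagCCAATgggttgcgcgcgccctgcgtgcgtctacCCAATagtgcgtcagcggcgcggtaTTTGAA
Kif11: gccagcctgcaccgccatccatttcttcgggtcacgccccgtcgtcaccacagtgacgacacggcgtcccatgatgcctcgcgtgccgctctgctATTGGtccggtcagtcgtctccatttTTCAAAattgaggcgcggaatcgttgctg
Top2a: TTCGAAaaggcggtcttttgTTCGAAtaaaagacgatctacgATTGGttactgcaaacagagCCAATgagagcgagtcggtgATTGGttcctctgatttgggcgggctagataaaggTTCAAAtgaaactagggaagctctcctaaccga
Ube2c: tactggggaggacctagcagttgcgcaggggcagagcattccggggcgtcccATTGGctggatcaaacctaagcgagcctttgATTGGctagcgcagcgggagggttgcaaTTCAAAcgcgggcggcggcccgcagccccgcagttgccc
Pttg1: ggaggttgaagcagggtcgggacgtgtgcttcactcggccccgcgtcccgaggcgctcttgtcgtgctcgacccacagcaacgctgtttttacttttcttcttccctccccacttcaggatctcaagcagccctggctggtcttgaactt
The 2 CHR matches of Cdk1 began 71 and 15 bases before the start base, and its 2 CCAAT matches shown here began at 80 and 48 before it. In Ccnb2 3 CCAAT matches, at 87, 54 and 21 bases before the start, preceded a CHR match 4 bases after it, where the stretch ends. Kif11 had 1 match of each kind, the CCAAT 45 and the CHR 19 bases before the start. Neither motif was found in this window of Pttg1.

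RefSeq windows of 250 bases before to 50 bases after the start were matched for 44 of the 54 genes (46 windows). A CHR motif was present for 35 of the 44 (79.5%), a CCAAT motif for 32 (72.7%) and both for 30 (68.2%). Among the 9385 tested genes with a window these shares were 16.4%, 43.7% and 6.98%, and among all 32851 windows they were 19.2%, 37.4% and 7.52%. A CHR match began within 50 bases of the start in 31 of 44 (70.5%), against 4.39% of the tested genes. The median GC content of the windows was 58.7% for the mitosis genes and 61.3% for the tested genes. No motif was found for 7 genes (15.9%, against 48.2% of the tested genes), which were Nusap1, Nuf2, Mad2l1, Birc5, Pttg1, Ncaph and Melk. Of these 7, 6 were lower with TCM than with CCM, at a median log2 fold change (FC) of −1.35, and the 30 genes with both motifs were all lower at the same median of −1.35. Lower here means called by the threshold given below, as were 10.2% of all tested genes. Windows were not used here for Ccna2, Cdc25c, Foxm1, Kif20a, Tpx2, Spc24, Aurkb, Incenp, Smc4 and Pbk. A motif match describes letters in a window and does not show that a factor bound there.

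**Figure D2:**
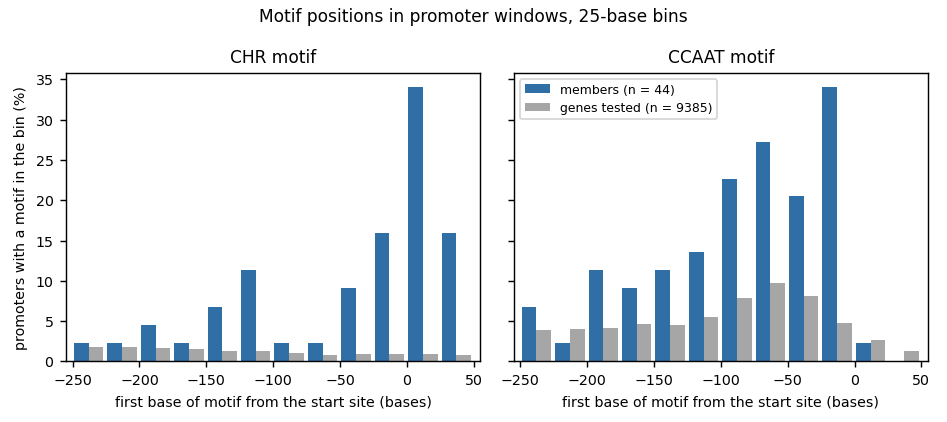
Bars give the percent of promoters in which a CHR (left) or CCAAT (right) motif began in each 25-base bin, by distance in bases from the start site (0), for 44 mitosis and spindle genes (blue) and 9385 tested genes (gray). In the bin from the start base on, 34.1% of the mitosis genes and 0.948% of the tested genes held a CHR match, and CCAAT matches of the mitosis genes were most frequent in the bin just before the start (34.1%).

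TCM was compared with CCM to ask what tumor-conditioned medium changed beyond conditioning itself. Calls required a log2 FC past 0.39 in size and an edgeR adjusted P value below 0.05, in a fit of all 12137 genes with all 8 libraries. With TCM, 52 of the 54 genes were called lower and 0 higher, where 10.2% of all tested genes were called lower and 8.83% higher. At an unadjusted P value under 0.05 the count was 53. The median log2 FC was −1.35, a ratio of 0.391, whereas the median of all tested genes was 0. Values ran from −1.68 for Ckap2l to −0.07 for Pttg1. Both TCM libraries lay below both CCM libraries for 53 of 54 genes, the exception being Pttg1, against 30.5% of all tested genes. All 52 calls held when CCM 1, CCM 2, TCM 1 or TCM 2 was left out, and under the other settings tried. Among the 24 genes that overlap no other gene in GENCODE M21, 23 were called lower, with a median of −1.33. Of 6 melanoma markers, the sum was 10 to 22 counts a library and did not set TCM apart, and most of it was Pmel (10 to 21 counts). Tyrp1, a pigment enzyme gene, had 6 and 3 counts in the TCM libraries and 0 in the other 6, and Dct had 1 and 1 against 0 in the others. Mlana had 0 or 1 count, Sox10 had 1 count in TCM 2, and Tyr had 0 counts in every library. Of the FRC markers, Pdpn was higher (0.44, adjusted P = 0.0108) and Pdgfrb lower (−0.47, adjusted P = 0.00926) with TCM over CCM. The part of these marker genes in the result was not tested.

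LA was compared with vehicle to ask what the acid did in unconditioned medium. With LA, 33 of the 54 genes were called higher and 0 lower, against 1.31% of all tested genes called higher and 1.24% lower. All 54 had a positive log2 FC, all 54 passed an unadjusted P value of 0.05, and the median was 0.56 (1.48-fold). In all 54 genes the LA libraries both exceeded the higher vehicle library, against 23.7% of all tested genes. Vehicle 1 was above vehicle 2 for 50 of 54 genes, and LA 1 was above LA 2 for 46 of 54. The calls depended on each library. Without vehicle 1 there were 7 calls, without vehicle 2 there were 0, without LA 1 there was 1 and without LA 2 there were 3, while medians stayed between 0.48 and 0.65 with all 54 positive. In these fits the lone library was assumed to vary like those of the other groups, and 57 to 81 genes were called in all, against 310 with both libraries.

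CCM was compared with vehicle because each treatment had its own control. With CCM, 29 of the 54 genes were called higher and 0 lower, against 0.898% of all tested genes called higher and 0.404% lower. All 54 were positive, with a median log2 FC of 0.58 (1.50-fold) and a range from 0.22 for Aspm to 0.88 for Nuf2. Both CCM libraries exceeded both vehicle libraries for all 54, against 25.8% of all tested genes. Here too the calls needed both replicates. None of the 54 was called without vehicle 1, vehicle 2, CCM 1 or CCM 2 (0 calls by edgeR in each case), while medians lay between 0.48 and 0.66. LA over vehicle and CCM over vehicle share the vehicle libraries, so their values are given side by side and not as separate evidence. CCM over vehicle and TCM over CCM share the CCM libraries with opposite sign, so these are not separate evidence either.

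LA and CCM were also set against each other. None of the 54 was called (0 by edgeR and 0 by DESeq2, against 0.626% of all tested genes by edgeR, of which 0.297% higher and 0.330% lower), and 1, Cenpf, passed an unadjusted P value of 0.05. The median log2 FC was −0.02, and single values ran from −0.26 for Ckap2 to 0.41 for Cenpf. The 95% intervals of the 54 differences had a median width of 0.51 and reached from −0.57 to 0.66 at their extremes. A missed threshold does not show that LA and CCM acted alike on these genes.

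TCM was below vehicle as well, though by less than below CCM. It gave 47 of 54 calls lower and 0 higher, against 8.90% of all tested genes called lower and 8.58% higher, with a median log2 FC of −0.73 (a ratio of 0.605). Both TCM libraries lay below both vehicle libraries for 51 genes, against 28.1% of all tested genes, and for the same number they lay below all 6 other libraries (16.7% of all tested genes). The 7 genes not called were Cdk1, Kif15, Cenpf, Spc24, Pbk, Pttg1 and Smc4, and the last 2 had positive values (0.27 and 0.17). This comparison shares the TCM libraries with TCM over CCM. For 51 genes both TCM libraries lay below both vehicle libraries and these below all CCM and LA libraries, an order found for 3.21% of all tested genes and chosen after the values were seen. The effect of TCM over CCM was then tested against that of LA over vehicle, and it was lower for 53 of 54 genes and higher for 0 (6.00% and 4.45% of all tested genes), at a median difference of −1.96 on the log2 scale. This difference includes the gap between the controls CCM and vehicle.

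**Figure D3:**
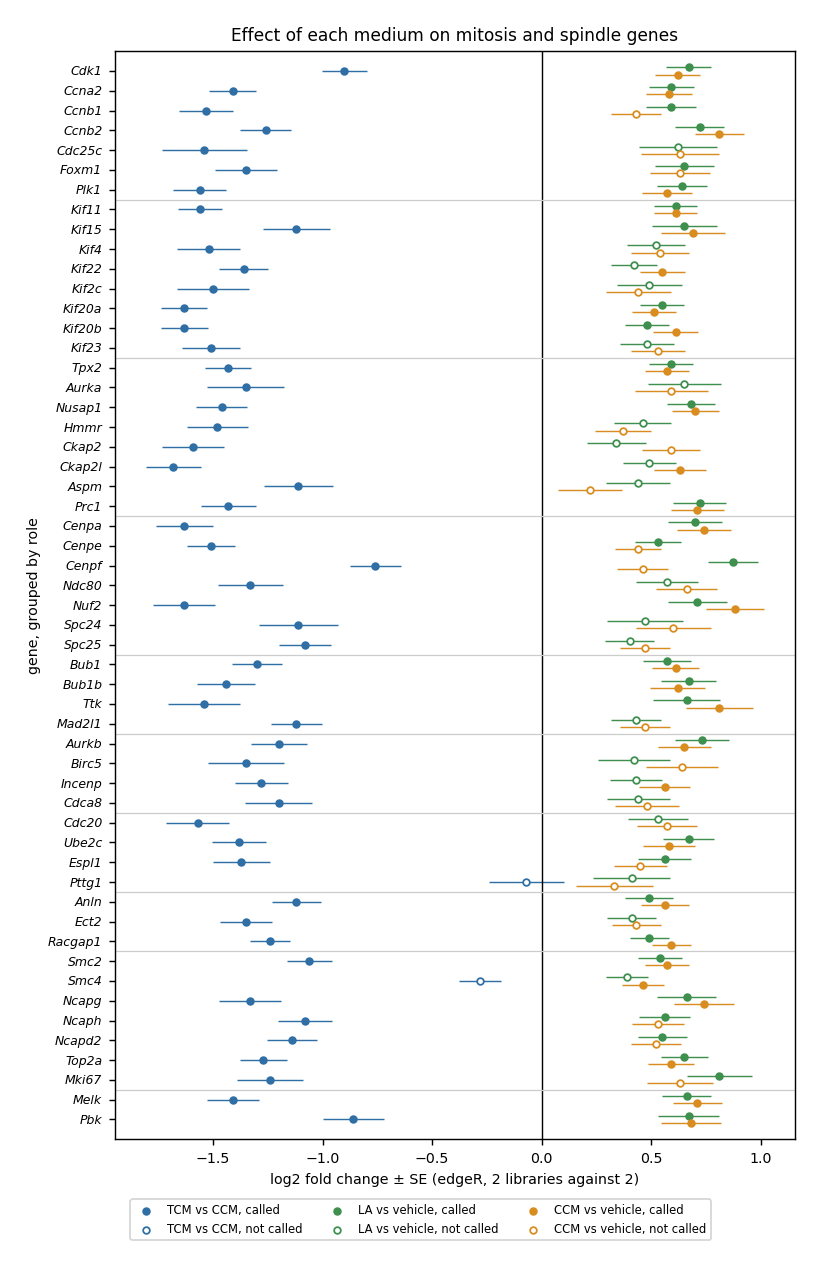
Log2 FC with its SE from edgeR (2 libraries against 2) for each of the 54 genes, for TCM over CCM (blue), LA over vehicle (green) and CCM over vehicle (orange), with filled points for called genes and open points for the rest. TCM values sit between −1.68 and −0.07 and the LA and CCM values between 0.22 and 0.88, so that the 2 sides do not overlap. TCM over CCM and CCM over vehicle use the same CCM libraries with opposite sign, so the gap between blue and orange is in part built in.

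The regulators of mitotic entry were called lower with TCM over CCM in 7 of 7 cases (10.2% of all tested genes). With LA over vehicle all 7 were positive, and 6 of 7 were called higher (1.31% of all tested genes). In this and the following groups, an LA call for some genes and not others does not show that their LA effects differ. Cdk1, the kinase that drives entry (chromosome 10 from 69335146 to 69352938 in GRCm38), had 64.4 and 56.0 CPM in the TCM libraries, 74.8 and 71.8 under vehicle, 112 and 113 under CCM and 123 and 110 under LA. Every TCM value was below every vehicle value, and CCM and LA overlapped. Its log2 FC was −0.90 with TCM over CCM (SE 0.104, adjusted P = 0.000167) and 0.67 with LA over vehicle (SE 0.103, adjusted P = 0.00839), but TCM over vehicle was not called (−0.28, adjusted P = 0.0862). Ccnb1, cyclin B1 (chromosome 13 from 100778650 to 100786570), had 18.1 and 17.2 CPM in the TCM libraries, 40.5 and 35.6 under vehicle, 54.6 and 47.7 under CCM and 58.3 and 56.2 under LA. TCM stood far below all other libraries for this cyclin. Its log2 FC was −1.53 over CCM (SE 0.123, adjusted P = 2.29e-05) and −1.10 over vehicle (SE 0.125, adjusted P = 0.000184), whereas LA raised it by 0.59 (SE 0.113, adjusted P = 0.0239). Over CCM the log2 FC was −1.41 for Ccna2 (cyclin A2), −1.26 for Ccnb2, −1.56 for Plk1 (a kinase of spindle poles and kinetochores), −1.35 for Foxm1 (a transcription factor of G2 genes) and −1.54 for Cdc25c (a phosphatase that activates Cdk1). With LA over vehicle, Ccna2 rose by 0.59, Ccnb2 by 0.72, Foxm1 by 0.65 and Plk1 by 0.64. Cdc25c was the 1 gene of this group without an LA call (0.62, adjusted P = 0.105), and it had the lowest level, at 5.13 CPM in TCM 2. With CCM over vehicle 4 of 7 were called, and Ccnb2 had the highest value at 0.81.

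All 8 kinesins fell with TCM, at a median log2 FC of −1.51 over CCM. Kif11, the motor that pushes spindle poles apart (chromosome 19 from 37376403 to 37421859), had 37.1 and 38.6 CPM in the TCM libraries, 74.8 and 71.5 under vehicle, 118 and 105 under CCM and 113 and 111 under LA. Both TCM libraries lay far below the others, of which the lowest was a vehicle library. Its log2 FC was −1.56 over CCM (SE 0.101, adjusted P = 1.07e-05), −0.95 over vehicle (SE 0.102, adjusted P = 0.000135) and 0.61 for LA over vehicle (SE 0.0966, adjusted P = 0.00937). Over CCM, values were −1.63 for Kif20a and Kif20b and −1.51 for Kif23, kinesins of the central spindle and cytokinesis, and −1.50 for Kif2c, which takes microtubule ends apart at centromeres. They were −1.52 for Kif4, −1.36 for Kif22, which both bind chromosome arms, and −1.12 for Kif15, a motor that backs up Kif11. With LA over vehicle 4 of 8 were called, which were Kif11, Kif15 (0.65), Kif20a (0.55) and Kif20b (0.48). Kif4, Kif22, Kif2c and Kif23 had values of 0.42 to 0.52 without a call. With CCM over vehicle 5 of 8 were called, up to 0.69 for Kif15. Kif15 was the 1 kinesin not called with TCM over vehicle (−0.42, adjusted P = 0.0896), with 16.1 and 19.2 CPM in vehicle and 11.6 and 14.8 in TCM libraries.

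The 8 spindle assembly genes all fell with TCM, at a median of −1.45 over CCM, and all 8 were also called over vehicle. Tpx2, which activates Aurka on spindle microtubules, had 57.1 and 62.7 CPM in the TCM libraries, 117 and 101 under vehicle, 159 and 163 under CCM and 169 and 158 under LA. TCM was lowest, vehicle came next, and CCM and LA overlapped above it. It fell by a log2 FC of 1.43 with TCM over CCM and rose by 0.59 with LA (SE 0.101, adjusted P = 0.0144). Ckap2l, a spindle-associated protein, had the lowest value of all 54 genes, −1.68 over CCM (SE 0.127, adjusted P = 1.90e-05), from 70.6 and 71.3 CPM to 20.2 and 24.1. Its relative Ckap2 was at −1.59, Hmmr at −1.48, Nusap1 at −1.46, Prc1 (which bundles antiparallel microtubules) at −1.43, Aurka (a spindle pole kinase) at −1.35 and Aspm (a pole-focusing protein) at −1.11. LA over vehicle gave 3 calls of 8, Tpx2, Nusap1 (0.68) and Prc1 (0.72), and Ckap2 was at 0.34 (adjusted P = 0.268), the lowest LA value of the 54. CCM over vehicle gave 4 calls, and Aspm was at 0.22 (adjusted P = 0.615). Aurka varied between TCM libraries, at 21.0 and 14.4 CPM.

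Genes of the centromere and kinetochore fell in 7 of 7 cases with TCM over CCM. Cenpf, a kinetochore protein of G2 and M (chromosome 1 from 189640606 to 189688086), had 27.3 and 32.2 CPM in the TCM libraries, 37.3 and 36.2 under vehicle, 52.6 and 48.2 under CCM and 64.1 and 70.1 under LA. The LA libraries lay above both CCM libraries for this gene. It had the highest LA value of the 54, 0.87 on the log2 scale (SE 0.114, adjusted P = 0.00305), and a value of 0.41 for LA over CCM (SE 0.111, adjusted P = 0.163). With TCM over CCM it fell by 0.76 (SE 0.117, adjusted P = 0.000996), the smallest of the 52 called changes, and TCM over vehicle was not called (−0.30, adjusted P = 0.103). Nuf2, of the Ndc80 complex that holds microtubules, had 14.5 and 13.0 CPM in the TCM libraries, 26.5 and 20.4 under vehicle, 43.8 and 41.8 under CCM and 38.4 and 38.1 under LA. It rose with CCM by 0.88 (SE 0.132, adjusted P = 0.0235) and fell with TCM over CCM by 1.63 (SE 0.141, adjusted P = 3.40e-05). The effects of TCM and LA on Nuf2 differed by −2.35 (SE 0.194, adjusted P = 4.83e-05), the lowest such difference of the 54. The other subunits of the same complex had TCM values of −1.33 (Ndc80), −1.11 (Spc24) and −1.08 (Spc25), and none of these 3 was called with LA (0.57, 0.47 and 0.40). Cenpa, the histone H3 variant of centromeres, was at −1.63 with TCM and 0.70 with LA, and the kinetochore motor Cenpe was at −1.51 and 0.53, all of them called.

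The spindle checkpoint genes and the chromosomal passenger complex fell with TCM over CCM in 8 of 8 cases. Bub1b (BubR1), which restrains the APC/C, had 25.9 and 33.6 CPM in the TCM libraries, 54.4 and 50.4 under vehicle, 82.1 and 79.3 under CCM and 88.1 and 78.3 under LA. Its TCM libraries differed more than its CCM libraries and still lay well below vehicle. The log2 FC with TCM over CCM was −1.44 for Bub1b, −1.54 for the kinase Ttk (Mps1), −1.30 for the kinase Bub1 and −1.12 for Mad2l1 (Mad2). With LA over vehicle Bub1b (0.67), Ttk (0.66) and Bub1 (0.57) rose and Mad2l1 was at 0.43 (adjusted P = 0.0828). In the passenger complex, which corrects faulty attachments, the kinase Aurkb had 22.8 and 22.7 CPM in the TCM libraries, 36.2 and 30.5 under vehicle, 54.5 and 50.2 under CCM and 59.7 and 51.4 under LA. It fell by 1.20 with TCM over CCM (SE 0.127, adjusted P = 9.97e-05) and rose by 0.73 with LA (SE 0.122, adjusted P = 0.0127). It was the 1 gene of the complex called with LA, and Birc5 (survivin), Incenp and Cdca8 (borealin) were at 0.42, 0.43 and 0.44 without a call. With TCM over CCM these 3 fell by 1.35, 1.28 and 1.20. Birc5 spread from 24.9 to 16.3 CPM between the TCM libraries, both below the 33.2 CPM of the lower vehicle library.

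Among 4 genes of anaphase control, 3 fell with TCM over CCM and Pttg1 was not called. Cdc20, the APC/C activator that the checkpoint inhibits, had 31.1 and 26.0 CPM in the TCM libraries, 62.2 and 51.9 under vehicle, 77.2 and 92.2 under CCM and 87.8 and 76.7 under LA. It fell by 1.57 (SE 0.144, adjusted P = 4.26e-05) over CCM, and LA over vehicle was at 0.53 (adjusted P = 0.0766). Ube2c fell by 1.38 and Espl1 (separase) by 1.37 with TCM over CCM, and they rose with LA by 0.67 and 0.56. Pttg1 (chromosome 11 from 43420250 to 43426251) had 32.4 and 21.5 CPM in the TCM libraries, 23.9 and 21.0 under vehicle, 26.4 and 30.1 under CCM and 31.1 and 28.7 under LA. One TCM library was the highest of all 8, and the other lay within the range of vehicle. Its log2 FC with TCM over CCM was −0.07 (SE 0.173, adjusted P = 0.825), −0.39 without TCM 1, 0.20 without TCM 2 and 0.03 without CCM 2, so its sign changed with the library left out. TCM over vehicle was at 0.27 (adjusted P = 0.334), and without TCM 2 it was called higher at 0.53 (adjusted P = 0.0114). LA over vehicle was at 0.41 (adjusted P = 0.308), and the TCM and LA effects did not differ past the threshold (−0.48, SE 0.246, adjusted P = 0.265).

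Of the cytokinesis genes, Anln (anillin) fell by 1.12, Ect2 (which activates RhoA at the division plane) by 1.35 and Racgap1 (its partner at the central spindle) by 1.24 with TCM over CCM. Racgap1 had 62.6 and 62.9 CPM in the TCM libraries, 102 and 95.8 under vehicle, 148 and 149 under CCM and 144 and 134 under LA. Its replicates were the closest in the CCM and TCM groups among these 3 genes. Racgap1 and Anln rose with LA, both by 0.49 (adjusted P = 0.0188 and 0.0408), and with CCM by 0.59 and 0.56. Ect2 was at 0.41 and 0.43 without a call.

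In the group of chromosome structure 6 of 7 genes were called lower with TCM over CCM, and all 7 were negative. With LA over vehicle 6 of 7 were called higher, and all 7 were positive. Top2a, which untangles sister DNA (chromosome 11 from 98992943 to 99024189), had 120 and 142 CPM in the TCM libraries, 219 and 201 under vehicle, 322 and 308 under CCM and 345 and 316 under LA. It fell by 1.27 with TCM over CCM (SE 0.108, adjusted P = 3.12e-05) and rose by 0.65 with LA (SE 0.106, adjusted P = 0.0110). Mki67, the gene of the Ki-67 antigen that coats mitotic chromosomes (chromosome 7 from 135689784 to 135716361), had 63.7 and 94.0 CPM in the TCM libraries, 124 and 116 under vehicle, 198 and 175 under CCM and 210 and 213 under LA. The LA libraries were the highest for this gene and did not overlap CCM, and the TCM libraries differed widely from each other. Mki67 fell by 1.24 with TCM over CCM (SE 0.152, adjusted P = 0.000233) and by 0.61 over vehicle (SE 0.153, adjusted P = 0.0171), and LA over vehicle was at 0.81 (SE 0.149, adjusted P = 0.0194). CCM over vehicle was not called for Mki67 (0.63, adjusted P = 0.0643), and LA over CCM was at 0.18 (adjusted P = 0.734). By Ki67 staining, which measures protein, the paper reports no effect of LA or TCM on FRC proliferation. How the RNA values relate to that staining was not tested. The condensin genes Ncapg, Ncapd2, Ncaph and Smc2 fell with TCM over CCM by 1.33, 1.14, 1.08 and 1.06, and rose with LA by 0.66, 0.55, 0.56 and 0.54.

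Smc4, the other core condensin subunit, differed from these 4 (chromosome 3 from 69004738 to 69034623, where Mir15b and Mir16-2 lie on the same strand). It had 247 and 240 CPM in the TCM libraries, 227 and 206 under vehicle, 298 and 296 under CCM and 299 and 270 under LA. The TCM libraries lay above both vehicle libraries and below all CCM and LA libraries. With TCM over CCM its log2 FC was −0.28 (SE 0.0958, adjusted P = 0.0567), and TCM over vehicle was at 0.17 (adjusted P = 0.241). Without scaling for composition the first value was −0.42 and was called (adjusted P = 0.00962). CCM raised it over vehicle (0.46, adjusted P = 0.0468), and LA over vehicle missed the threshold (0.39, adjusted P = 0.0614). The TCM and LA effects on Smc4 differed (−0.68, SE 0.136, adjusted P = 0.00867).

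The other mitotic kinases, Melk and Pbk, fell with TCM over CCM by 1.41 and 0.86 and rose with LA by 0.66 and 0.67. Pbk had 23.6 and 19.3 CPM in the TCM libraries, 26.1 and 22.6 under vehicle, 37.1 and 40.9 under CCM and 41.8 and 35.8 under LA. One TCM library of Pbk lay between the vehicle libraries, and TCM over vehicle was not called (−0.18, adjusted P = 0.441). Melk was called in that comparison (−0.69, adjusted P = 0.00282).

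**Figure D4:**
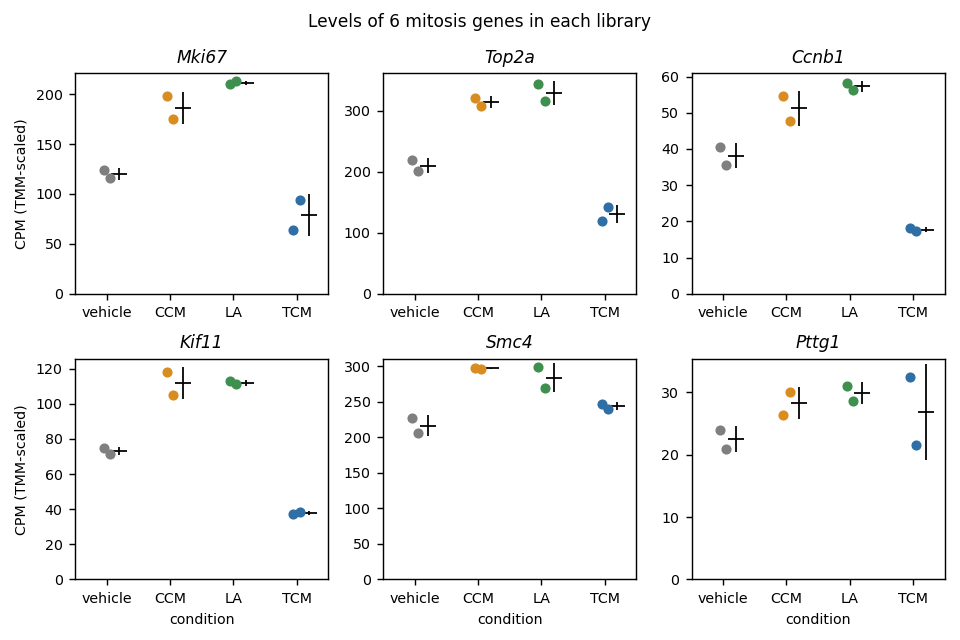
CPM in each library (points) with the mean and SD of 2 libraries (black) for Mki67, Top2a, Ccnb1, Kif11, Smc4 and Pttg1 under vehicle, CCM, LA and TCM, on axes that start at 0. In the first 4 genes TCM lies below every other library (Ccnb1 at 18.1 and 17.2 CPM), Smc4 with TCM lies between vehicle and CCM, and Pttg1 with TCM spans 21.5 to 32.4 CPM.

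Other lists of cell cycle genes were read from the same fit for comparison. With TCM over CCM, 10.2% of all tested genes were called lower. Of 59 other G2 and M genes, 54 were called lower with TCM over CCM, at a median of −1.19, with the smallest adjusted P values for Dlgap5 (−1.68), Ccnf (−1.49) and Fam83d (−1.50). Of 40 DNA replication genes, 33 were called lower at a median of −0.75, with the smallest adjusted P values for Mcm5 (−1.01), Rrm2 (−1.05) and Tk1 (−1.36). Against vehicle, 4 of 40 replication genes were called lower with TCM at a median of −0.19, a share near the 8.90% of all tested genes called lower in that comparison. With LA over vehicle, 11 of 59 G2 and M genes (Plk4, Knl1 and Tacc3 among them) were called higher. So were 12 of 40 replication genes (Mcm3, Mcm5 and Pola1 among them), and none of either list was lower. Of all tested genes 1.31% were called higher with LA. With CCM over vehicle the counts were 9 of 59 and 19 of 40, against 0.898% of all tested genes. The APC/C degrades mitotic proteins and is present through much of the cycle. Its 15 core subunits had a median of −0.04 with TCM over CCM. Of these 1, Anapc16, was called lower (−0.52, adjusted P = 0.00787), a share near that of all tested genes.

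Of 23 genes for MuvB subunits, Myb, RB, E2F and NF-Y factors, 8 were lower with TCM over CCM and 0 higher, at a median of −0.24. Among all tested genes 10.2% were called lower and 8.83% higher. The lowest of the 23 were E2f8 (−1.40), E2f7 (−1.36) and Mybl2 (−1.35). Mybl2 encodes B-Myb and had 17.1 and 14.5 CPM with CCM and 5.27 and 7.20 with TCM. With LA over vehicle 1 of the 23 was higher, Rbl1 (0.62, adjusted P = 0.0239), the RB relative p107, against 1.31% of all tested genes. Of 9 tested CDK inhibitors and D-type cyclins, Cdkn1a (p21) was lower with TCM over CCM (−0.77, adjusted P = 0.000378). Cdkn2b (p15) was higher (0.52, adjusted P = 0.0262). At 1 of 9 in each direction, these calls are near the shares of all tested genes. With LA over vehicle none of the 9 was called (0 by edgeR, with 3 at an unadjusted P value under 0.05), and Cdkn1a was at −0.42 (adjusted P = 0.0552).

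**Figure D5:**
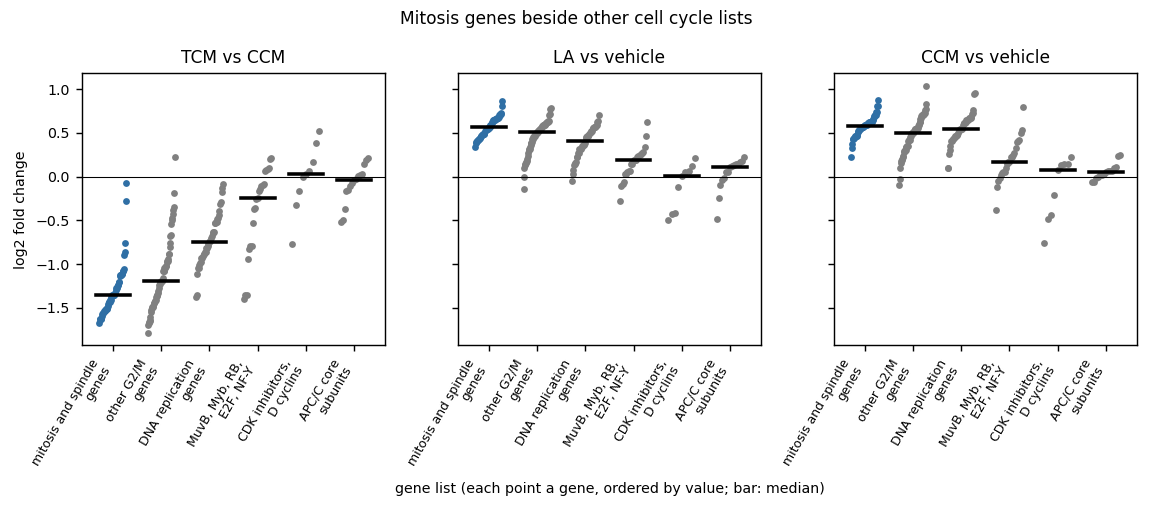
Log2 FC of single genes (points, ordered within each list, with a bar at the median) for the 54 mitosis and spindle genes (blue) and 5 other cell cycle lists (gray), with TCM over CCM, LA over vehicle and CCM over vehicle in 3 panels. With TCM the medians run from −1.35 for the mitosis genes and −1.19 for other G2 and M genes to −0.75 for replication genes and −0.04 for APC/C subunits, and with LA from 0.56 for the mitosis genes to 0.01 for CDK inhibitors and D-type cyclins.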

How the data were processed

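RNA-seq libraries were poly(A) selected and directional. Per the submitters' processing notes, the authors aligned reads to GRCm38/mm10 with STAR 2.7.0a, counted them per gene with featureCounts (Subread 2.0.1) and used DESeq2 1.32.0. Whether strand was used in counting is not given in the sources used here. The deposited values are whole-number counts per gene that the authors did not normalize. A second deposited table is named as normalized with DESeq2. It holds the same counts for the 12137 genes that passed the count rule (100% of values equal), so it was taken as raw counts. Columns not used numbered 0. Groups came from the labels, and the 2 libraries of a group are described as biological replicates.

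The count rule kept genes that reached 10 counts in 3 or more of 8 libraries. CPM used TMM factors. All 8 libraries were fitted together with edgeR 4.0.16 (quasi-likelihood, limma 3.58.1, R 4.3.3) with no block. P values were adjusted by Benjamini-Hochberg over all 12137 genes, and a call needed an adjusted P under 0.05 and a log2 FC beyond 0.39. The steps were tested on simulated data with the same spread for every gene and library. That setting cannot show how they perform at the larger noise of TCM. DESeq2 1.42.0, other scalings, filters, folds and fits were alternatives. All mitosis genes were named, along with the markers (1 is not reported here) and, from each other list, at most 3 called genes with the smallest adjusted P in TCM over CCM and in LA over vehicle. The genes and lists were chosen with earlier results of these data known. Gene positions and overlaps came from GENCODE M21, and promoters from RefSeq. The authors' annotation may differ from both.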

Additional observations from a re-analysis of the deposited data

Results flagged for a closer look

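For 53 of the 54 mitosis and spindle genes the effect of TCM over CCM differed from that of LA over vehicle, by edgeR's test of the difference itself with Benjamini-Hochberg adjustment. TCM values were negative and LA values positive for all 54. The median difference was −1.96 on the log2 scale, and single differences ran from −2.35 for Nuf2 to −0.48 for Pttg1, which missed the threshold (adjusted P = 0.265). Smc4 passed it with a difference of −0.68 (adjusted P = 0.00867), although its TCM value alone was not called. The 2 effects have different controls and share no library, but all 8 libraries share the estimate of the spread. The controls also differed from each other, as CCM over vehicle was positive for all 54 genes at a median of 0.58. That gap is part of the difference of effects, and TCM over vehicle had a median of −0.73. The count ran from 52 to 54 when 1 library was left out. No cause of the difference was tested.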

How the results depend on the processing

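With 2 libraries a group, the fall with TCM over CCM kept its direction and calls under every alternative tried, whereas the counts for LA over vehicle and CCM over vehicle depended on each library. Leaving out a library gives an arm of 1, assumed to vary like the others. Mitosis genes called then numbered 52 to 52 for TCM over CCM, 0 to 7 for LA over vehicle (33 with all libraries), 0 to 0 for CCM over vehicle (29), 32 to 50 for TCM over vehicle (47), 0 to 0 for LA over CCM (0) and 52 to 54 for the difference of effects (53). With a log2 FC beyond 0.68, 8 were called for LA over vehicle, 10 for CCM over vehicle, 35 for TCM over vehicle and 52 for TCM over CCM. With no filter on low counts, CCM over vehicle gave 48, LA over vehicle 48, and LA over CCM 1, which was Cenpf (0.44, adjusted P = 0.0238). In fits of only the libraries compared, CCM over vehicle gave 51, LA over vehicle 41 and LA over CCM 1, again Cenpf (0.42, adjusted P = 0.0205). The cause of these moves was not tested. Shares of all genes called under each alternative are not given here, so such counts show only how calls depend on the setting. The difference of effects needs all 8 libraries, so that fit was not run for it. Without scaling for composition, the median of all genes shifted by −0.14 for TCM over CCM, the median of the mitosis genes was −1.49, and 53 were called. DESeq2 called 52 for TCM over CCM, 35 for LA over vehicle, 37 for CCM over vehicle and 46 for TCM over vehicle. No called value changed sign.

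Libraries share replicate numbers across groups. Correlations of same-numbered deviations over 12137 genes were 0.386 for vehicle and LA, 0.130 for vehicle and TCM and 0.124 for LA and TCM. With CCM they were −0.0521 (vehicle), −0.0893 (LA) and −0.278 (TCM), so the numbers were not taken to pair libraries across all groups, and whether they do so among vehicle, LA and TCM is not given by the labels. With the replicate number as a block, calls numbered 52 for TCM over CCM, 35 for LA over vehicle, 34 for CCM over vehicle, 47 for TCM over vehicle, 0 for LA over CCM and 53 for the difference of effects. With the CCM numbers crossed, a pairing chosen after seeing the data, the block gave 52, 47, 50, 48, 1 and 53 calls in the same order. Shares of all genes called with these blocks are not given here either.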

Other observations

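Of the 59 other G2 and M genes, 5 were not called with TCM over CCM, and they are named here after their values were seen. Zwint, a kinetochore gene, was at 0.22, the CENP genes Cenpq and Cenpw at −0.38 and −0.43, the CDK-binding subunit gene Cks1b at −0.35 and the alpha-tubulin gene Tuba1c at −0.19. In the promoter windows of the lists, a CHR motif was found for 35 of 44 mitosis genes, 30 of 50 other G2 and M genes and 6 of 32 replication genes.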
